A study of Mus musculus with 9 samples.

Results

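The kinesin rows of the count table were the genes whose symbol begins with Kif or Kifc followed by a digit, which gave 39 rows of 15824. By textbook role they were 13 motors of the spindle and cytokinesis (mitotic kinesins), 15 motors that carry cargo along microtubules (transport kinesins), 5 kinesins of cilia and centrioles, 5 with other roles, and Kif1bp, a kinesin binding protein that has no motor domain. RNA was sequenced after removal of ribosomal RNA in 9 cardiomyocyte libraries of CD-1 mice, 3 from postnatal day 1 (P1), 3 from day 14 (P14) and 3 from day 56 (P56). Each P1 library pooled 12 hearts and each later library 6 to 7, and the libraries of an age are described as a biological triplicate. The labels describe both isolation of whole cells and sorting of nuclei that carry Pcm1, a protein around the nucleus of cardiomyocytes, and do not settle which of them each library went through. A growth protocol that all the libraries share also speaks of surgery, but no library is labelled with an operation, genotype or treatment.

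Kinesins are motor proteins that use ATP to move along microtubules or to shorten them. One group of them assembles the spindle, moves chromosomes and organises the midzone at which a dividing cell is split, and their genes are switched on in the late cell cycle. Another group carries vesicles, mitochondria, mRNA and protein complexes, in cells that divide as well as in cells that do not. Mouse cardiomyocytes mostly stop dividing in the first days after birth, after a last round of nuclear division that leaves many of them with more than 1 nucleus. The comparison below sets the division motors against the cargo motors in that period.

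Since the mitotic members moved together with age, their promoter sequences are shown first. RefSeq promoter windows (build GRCm38.p6, from 250 bases before to 50 bases after the annotated start) were matched by symbol to 31 of the 39 members, 12 of the mitotic and 10 of the transport kinesins. The letters searched, on either strand, were TTTGAA (the cell cycle genes homology region), CCAAT (the CCAAT box, which is ATTGG on the other strand) and GCGGGAA (an E2F site). None of these letter strings overlaps another in the printed windows. Each sequence below runs 5′ to 3′ on the strand of its gene from 120 bases before to 30 bases after the start, and capitals mark TTTGAA or CCAAT on either strand. Kif11, Kif23, Kif4 and Kif22 stand for the mitotic members with both strings, Kif18a is the mitotic member with none of them, and Kif3b is a transport member with CCAAT alone. Their positions are chr19:37376262-37376411 (plus strand) for Kif11, chr9:61946770-61946919 (minus strand) for Kif23, chrX:100625945-100626094 (plus strand) for Kif4, chr7:127042391-127042540 (minus strand) for Kif22, chr2:109280618-109280767 (plus strand) for Kif18a and chr2:153291296-153291445 (plus strand) for Kif3b.
Kif11: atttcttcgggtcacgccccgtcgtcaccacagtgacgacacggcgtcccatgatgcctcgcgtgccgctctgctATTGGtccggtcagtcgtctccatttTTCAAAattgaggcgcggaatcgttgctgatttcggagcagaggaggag
Kif23: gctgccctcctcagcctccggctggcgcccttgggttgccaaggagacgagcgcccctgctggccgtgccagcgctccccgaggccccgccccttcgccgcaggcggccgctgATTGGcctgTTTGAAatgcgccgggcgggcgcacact
Kif4: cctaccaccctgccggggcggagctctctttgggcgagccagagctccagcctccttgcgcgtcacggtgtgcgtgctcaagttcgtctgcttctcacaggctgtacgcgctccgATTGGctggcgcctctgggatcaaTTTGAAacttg
Kif22: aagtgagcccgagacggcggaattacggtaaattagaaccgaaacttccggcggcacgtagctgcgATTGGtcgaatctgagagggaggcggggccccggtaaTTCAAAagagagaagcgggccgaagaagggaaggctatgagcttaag
Kif18a: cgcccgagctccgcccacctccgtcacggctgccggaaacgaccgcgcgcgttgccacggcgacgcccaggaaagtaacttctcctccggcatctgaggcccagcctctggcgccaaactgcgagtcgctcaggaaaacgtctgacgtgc
Kif3b: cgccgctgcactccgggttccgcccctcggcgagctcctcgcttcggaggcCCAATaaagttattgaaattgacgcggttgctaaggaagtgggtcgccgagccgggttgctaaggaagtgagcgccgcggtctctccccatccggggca

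TTTGAA was found in 11 of 12 mitotic windows (91.7%), in 1 of 12 transport windows (8.33%, at a start inside Kif1a) and in 17.9% of all 32851 windows of the same length. CCAAT was found in 8 of 12 mitotic windows (66.7%), in 4 of 12 transport windows (3 of 10 genes, since the windows of Kif1b overlap) and in 37.4% of all windows. Both strings stood together in 8 of 12 mitotic windows, in 0 of 12 transport windows and in 6.95% of all windows. They also stood together in 1 of 6 cilium and centriole windows (Kif27) and in 1 of 5 windows of other kinesins (Kif26b). GCGGGAA was found in 0 of 12 mitotic windows and in 4.60% of all. In the 4 printed windows that hold TTTGAA its first base nearest the start lies 19 bases before it in Kif11, 17 before it in Kif22, and at base 3 in Kif23 and base 20 in Kif4, with the start as base 1. Of the 11 mitotic members with the string, 9 had it within 30 bases of the start, while in Kif14 it began 228 bases before the start and in Kif2c 103 before it. The windows of Kif14 and Kif2c were also at starts inside the gene, like the Kif1a window with the string. Kifc1 and Kifc5b, near copies whose windows share most of their sequence, were counted separately. These are matches of letters and not measured binding sites.

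Totals were 36619799 to 58538025 counts per library, with P14 the shallowest age. The 10 cardiomyocyte markers listed for the check of the label summed to 51380 to 61368 CPM (counts scaled to library size) in the P1 libraries. In the P14 libraries the sum was 60152 to 92618 and in the P56 libraries 55210 to 78966. Among single genes, Pcm1 had 248 ± 5.25 CPM in P1 (mean ± SD, n = 3), then 136 ± 9.90 at P14 and 173 ± 3.90 at P56, and the heavy chain Myh7 of immature and slow muscle fell from 542 ± 12.5 to 135 ± 41.1 and 108 ± 18.5 while Myh6 went from 2614 ± 123 to 6396 ± 2011 and 4201 ± 737. Markers of other cell types were present as well and moved with age. Of 52 measured markers of fibroblasts, endothelium, leukocytes, smooth muscle or pericytes and epicardium, 39 rose and 4 fell from P1 to P14, and 0 rose and 39 fell from P14 to P56 by edgeR's quasi-likelihood test. Their mean log2 CPM, called the marker score here, was 1.85, 1.49 and 2.04 in P1 replicates 1 to 3, 3.79, 3.31 and 2.60 at P14, and 1.73, 1.11 and 0.635 at P56. At P14 the endothelial markers summed to 307 to 783 CPM, against 96.4 to 133 in P1 and 56.0 to 140 in P56 libraries, and the fibroblast markers to 233 to 857, against 184 to 374 and 52.3 to 104. A fit with this score as a covariate is given beside many of the results it changes. Beyond that the part of these cells in the kinesin results was not tested, and in bulk libraries fewer cells of a type and less RNA per cell cannot be told apart.

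All 39 kinesin rows passed the filter on low counts. By the test for any difference among the ages, 35 of 39 differed, beside 78% of all 15817 genes tested, and these were 13 of 13 mitotic, 12 of 15 transport, 4 of 5 cilium and centriole and 5 of 5 other kinesins, with Kif1bp. From P1 to P14, 8 kinesin rows rose and 20 fell, beside 28.4% and 27.5% of all genes. From P14 to P56, 8 rose and 20 fell, beside 27.5% and 28.5%. At P56 against P1, 10 were higher and 21 lower, beside 30.9% and 31.7%. Log2 changes below carry their standard error (SE) over 3 against 3 libraries, and every adjusted p is that of edgeR's quasi-likelihood test after Benjamini-Hochberg adjustment across all genes tested, at a threshold of 0.05. Tested against a log2 change of 1 instead of 0, 16 kinesin rows fell and 4 rose from P1 to P14, beside 5.31% and 7.62% of all genes. Under that test 9 fell and 0 rose from P14 to P56, beside 8.04% and 2.98%, and 16 were lower and 3 higher at P56 than at P1, beside 10.8% and 8.48%.

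Levels of different kinesins were compared as CPM per kilobase of annotated exon (mean ± SD, n = 3). At P1 the order began with Kif13a at 48.6 ± 2.17, a kinesin-3 motor of recycling endosomes, then Kif16b at 29.2 ± 1.90, which moves early endosomes, and Kif1b at 28.6 ± 0.466, which carries mitochondria and vesicle precursors. Kif16b and Kif1b differed by less than their spread. Kif5b, the widely expressed heavy chain of conventional kinesin, followed at 18.2 ± 0.741, and Kif26b at 16.2 ± 0.719. The highest mitotic kinesin per kilobase at P1 was Kif4 at 3.15 ± 0.136, in place 13 of 39. At P14 the first 3 places were held by Kif13a at 52.7 ± 6.48, Kif1b at 31.1 ± 3.26 and Kif16b at 25.0 ± 5.65, and the SDs of the last pair overlapped. At P56 Kif16b at 52.8 ± 3.30 and Kif13a at 51.3 ± 3.94 differed by less than their spread, followed by Kif1b at 38.9 ± 2.87 and Kif21a at 21.2 ± 1.11. With the length of the longest transcript in place of all annotated exons, the same 3 genes led at each age, but Kif1b moved to place 2 at P1 and P56, and the highest mitotic kinesin at P1 was Kif15 (4.35, place 14) instead of Kif4 (3.48, place 16).

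**Figure D1:**
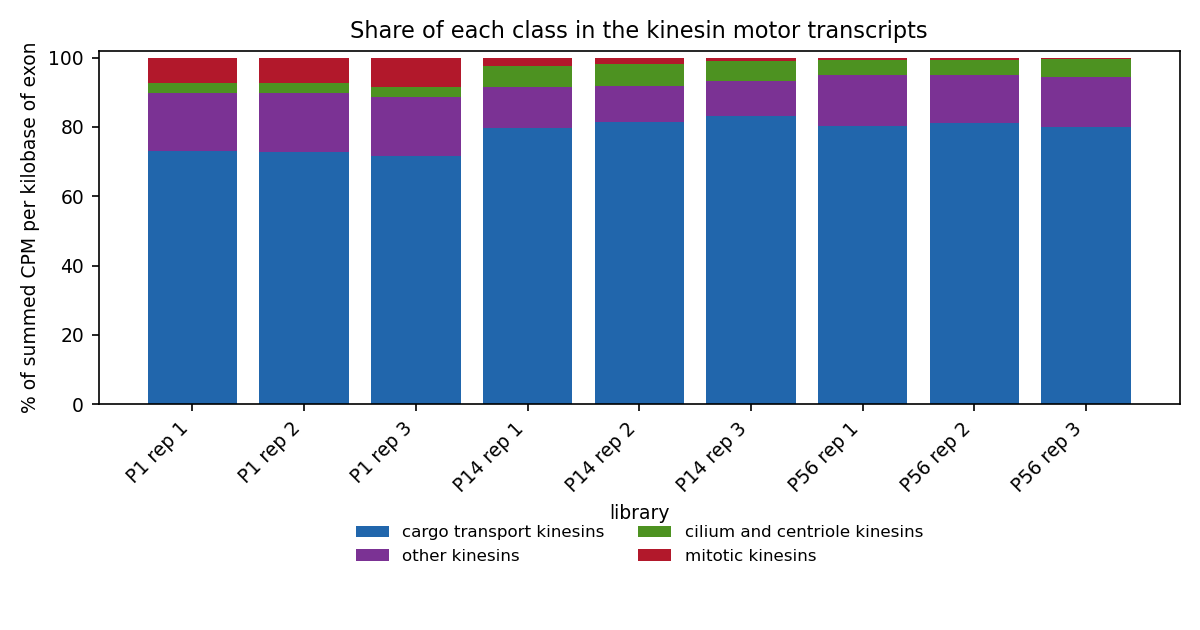
Share of each kinesin class (% of summed CPM per kilobase of exon, vertical axis) in each of the 9 libraries (horizontal axis), with Kif1bp left out; colours are the 4 classes. The mitotic share falls from 7.36 to 8.57% (P1) to 1.06 to 2.39% (P14) and 0.437 to 0.590% (P56), while transport kinesins make up 71.6 to 73.1%, 79.7 to 83.2% and 79.9 to 81.2%.

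In the plot of class shares, the mitotic share of all kinesin motor transcripts was 7.36, 7.39 and 8.57% at P1, 2.39, 1.82 and 1.06% at P14, and 0.590, 0.535 and 0.437% at P56. The ages did not overlap. The transport share was 73.1, 72.8 and 71.6% at P1, 79.7, 81.4 and 83.2% at P14, and 80.4, 81.2 and 79.9% at P56, so P1 lay below both later ages, and P14 and P56 overlapped. As a sum, mitotic kinesins gave 108, 111 and 123 CPM at P1, 31.1, 25.3 and 16.7 at P14 and 10.2, 10.3 and 8.69 at P56. Transport kinesins summed to 1598, 1608 and 1520 CPM at P1, 1523, 1743 and 1912 at P14 and 1988, 2217 and 2213 at P56. The P56 libraries held more transport kinesin CPM than every P1 and P14 library.

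All 13 mitotic kinesins fell from P1 to P14 and 12 of 13 fell again from P14 to P56. Their median log2 change was −2.09 in the first interval (range −2.79 to −1.45) and −2.14 in the second, beside medians of 0.0010 and −0.019 over all genes tested. At P56 against P1 all 13 were lower, with a median of −4.17. The levels left were 14.5 to 36.5% of the P1 level at P14 (median 23.3%), and 1.44 to 40.7% at P56 (median 5.49%). No library of P14 overlapped P1 for any of the 13, beside 32.9% of all genes that were lower without overlap. Without overlap 11 of 13 were lower at P56 than at P14, beside 29.3% of all genes, and 13 of 13 lower at P56 than at P1, beside 37.1%. DESeq2 made the same counts of mitotic calls in these 3 comparisons.

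**Figure D2:**
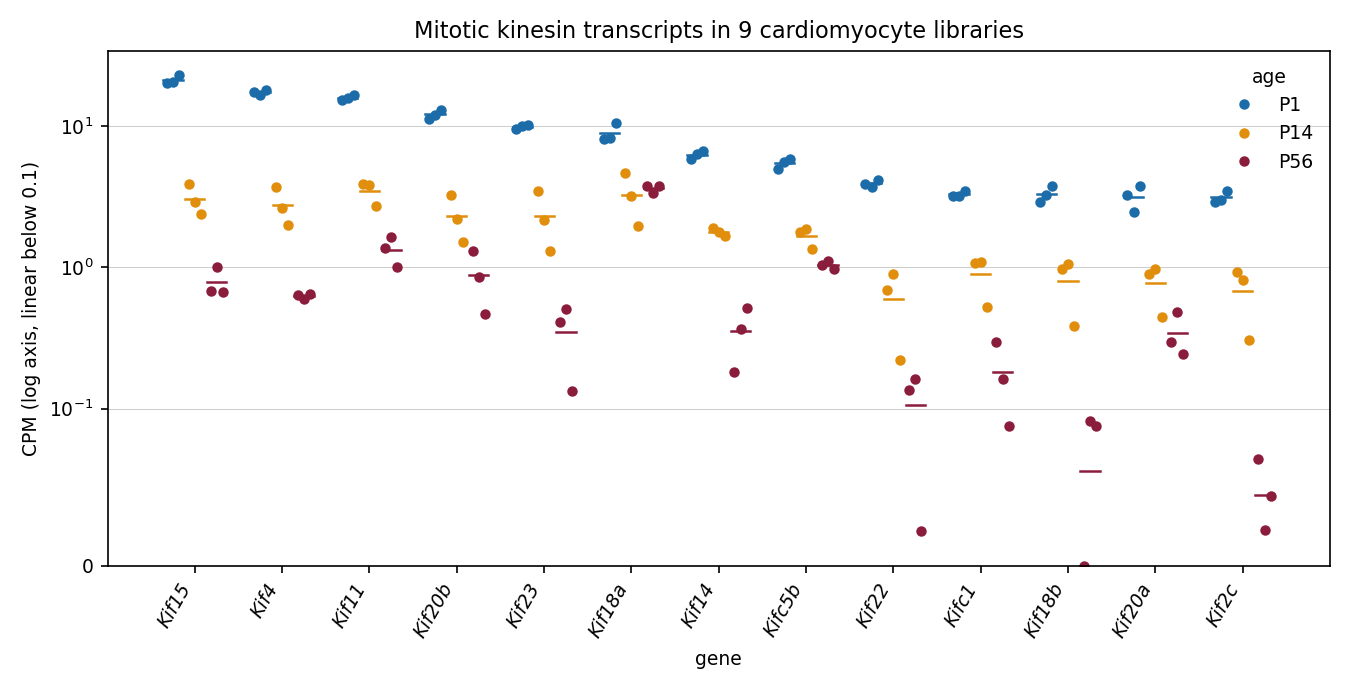
CPM of the 13 mitotic kinesins (horizontal axis) in each library (points, coloured by age; short lines are the means of 3 libraries), on a vertical axis that is logarithmic above 0.1 CPM and linear below. Every P1 point lies above every P14 point of the same gene, and Kif18a and Kif20a are the genes whose P14 and P56 points overlap.

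At P1 the most abundant mitotic members by CPM were Kif15 and Kif11, which push the spindle poles apart, and the chromosome motor Kif4. Kif15, which backs up Kif11 in keeping the spindle bipolar (GRCm38 chromosome 9, 122951046 to 123018733, plus strand; all positions below are in that build), had 20.0, 20.5 and 22.9 CPM at P1, 3.91, 2.89 and 2.37 at P14, and 0.679, 1.01 and 0.668 at P56. It fell by 2.79 ± 0.19 (SE) on the log2 scale from P1 to P14 (adjusted p = 2.38e-06), the largest fall of the 13, and changed by −1.96 ± 0.22 from P14 to P56 (adjusted p = 7.12e-05). Kif11, the kinesin-5 motor that slides antiparallel microtubules apart, had 15.3, 15.7 and 16.7 CPM at P1, 3.91, 3.81 and 2.70 at P14, and 1.36, 1.63 and 1.00 at P56. Its changes were −2.19 ± 0.18 (adjusted p = 6.87e-06) and −1.39 ± 0.19 (adjusted p = 0.000260). For both genes the 3 ages did not overlap, and within P14 the lowest value was that of replicate 3.

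Motors that act on chromosomes and on the plus ends of microtubules followed the same course, with Kif18a as the exception. Kif4, a chromosome arm motor that also limits the midzone, had 17.4, 16.6 and 18.1 CPM at P1, 3.68, 2.62 and 1.99 at P14, and 0.634, 0.597 and 0.646 at P56. It changed by −2.65 ± 0.18 and then by −2.14 ± 0.22, and reached −4.79 ± 0.21 at P56 against P1 (adjusted p = 6.73e-08). Kif22, which pushes chromosome arms away from the poles, had 3.90, 3.70 and 4.18 CPM at P1, 0.690, 0.892 and 0.221 at P14, and 0.136, 0.161 and 0.0223 at P56. The P56 libraries held only 14 counts of Kif22 in all, and its changes were −2.70 ± 0.40 and −2.48 ± 0.58. Kif18b, which shortens astral microtubules, had 2.88, 3.26 and 3.75 CPM at P1, 0.971, 1.05 and 0.386 at P14, and 0, 0.0918 and 0.0891 at P56, with 8 counts in the 3 P56 libraries together. Its changes were −2.03 ± 0.38 and −3.68 ± 0.60. Kif2c, a motor that depolymerises microtubules at the centromere, had 2.91, 2.98 and 3.49 CPM at P1, 0.920, 0.811 and 0.303 at P14, and 0.0679, 0.0230 and 0.0446 at P56. With 6 counts at P56 it showed the largest difference between P56 and P1 of the mitotic list, −6.03 ± 0.46 (adjusted p = 2.10e-06). Changes that rest on so few counts at P56 carry larger errors than those of Kif15, Kif11 and Kif4. Of the exon bases of Kif4, 15.1% also belong to another annotated gene, so its counts are less certain.

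Kif18a, which dampens chromosome movement at the metaphase plate (chromosome 2, 109280738 to 109341747, plus strand), had 8.05, 8.19 and 10.6 CPM at P1, 4.63, 3.19 and 1.96 at P14, and 3.78, 3.33 and 3.79 at P56. Each P14 and P56 library lay below each P1 library, while P14 and P56 overlapped. It fell by 1.45 ± 0.25 (SE) from P1 to P14 (adjusted p = 0.000941) and changed by 0.15 ± 0.26 from P14 to P56 (adjusted p = 0.637). At P56 it was the most abundant mitotic kinesin by CPM and per kilobase. Its second change minus its first was 1.60 ± 0.46 (adjusted p = 0.0152), and without P14 replicate 2 this difference had an adjusted p of 0.0575. None of the 3 exact strings was found in its promoter window. Other forms of these sites were not searched, and a link to its course was not tested.

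The motors of the midzone and of cytokinesis lost most of their counts by P14. Kif23, which with Racgap1 forms the centralspindlin complex, had 9.52, 10.1 and 10.1 CPM at P1, 3.48, 2.16 and 1.30 at P14, and 0.408, 0.505 and 0.134 at P56. Its changes were −2.09 ± 0.34 and −2.73 ± 0.43. Kif20a, which brings the chromosomal passenger complex to the midzone, had 3.27, 2.46 and 3.75 CPM at P1, 0.894, 0.973 and 0.441 at P14, and 0.294, 0.482 and 0.245 at P56, with changes of −2.03 ± 0.31 and −1.18 ± 0.37. Of the exon bases of Kif20a, 29.3% also belong to Cdc23. For Kif20a the P14 and P56 libraries overlapped, and its second change (adjusted p = 0.0208) was lost without P14 replicate 1 or 2 or P56 replicate 1 or 3, each left out singly (adjusted p 0.0539 to 0.0793). Kif20b, a relative of Kif20a that acts late in cytokinesis, had 11.3, 12.1 and 13.1 CPM at P1, 3.27, 2.19 and 1.52 at P14, and 1.31, 0.850 and 0.468 at P56, with changes of −2.38 ± 0.31 and −1.41 ± 0.35. Kif14, which recruits citron kinase to the midbody, had 5.80, 6.35 and 6.66 CPM at P1, 1.89, 1.78 and 1.66 at P14, and 0.181, 0.367 and 0.512 at P56, with changes of −1.82 ± 0.22 and −2.32 ± 0.27. The ages of Kif23, Kif20b and Kif14 did not overlap.

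The minus end motor Kifc1, which focuses spindle poles, had 3.21, 3.20 and 3.49 CPM at P1, 1.07, 1.08 and 0.524 at P14, and 0.294, 0.161 and 0.0891 at P56, with changes of −1.88 ± 0.30 and −2.29 ± 0.40. Kifc5b, its near copy, had 4.93, 5.59 and 5.87 CPM at P1, 1.79, 1.87 and 1.35 at P14, and 1.04, 1.10 and 0.980 at P56, with changes of −1.71 ± 0.15 and −0.68 ± 0.17. They are not independent readouts, since 38.6% of the 50-base stretches of Kifc1 transcripts also occur in Kifc5b transcripts, so reads may have been split between them or dropped. The difference between the intervals of Kifc5b was 1.03 ± 0.28 (adjusted p = 0.0128). With Kif18a it was 1 of 2 mitotic members in which a positive difference was called, beside 24.1% of all genes. In 11 of 13 mitotic kinesins no difference between the intervals was called. At an unadjusted p under 0.05 the counts were 4 positive and 0 negative, and DESeq2 called 3 positive.

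The mitotic level within P14 varied with the library. In 13 of 13 mitotic kinesins P14 replicate 3 was the lowest P14 library, and in 8 of 13 replicate 1 was the highest. The share of all genes with such an order was not counted, so it cannot be called particular to these members. Replicate 3 also had the lowest marker score of the P14 libraries and replicate 1 the highest. With the marker score as a covariate in the fit, all 13 were lower at P14 than at P1, with a median of −3.08 (24.4% of all genes were lower), and all 13 at P56 than at P1, with a median of −4.21 (31.5% of all genes). From P14 to P56 the median was then −0.69 and 3 members were lower (Kif14, Kif15 and Kif4), beside 13.8% of all genes in the same fit. Kif18a was then higher at P56 than at P14 (adjusted p = 0.0443), beside 14.8% of all genes. The difference between the intervals was positive in 6 of 13, beside 15.2% of all genes. All P14 libraries had higher scores than all P1 and all P56 libraries, so age and score cannot be fully told apart in either step.

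**Figure D3:**
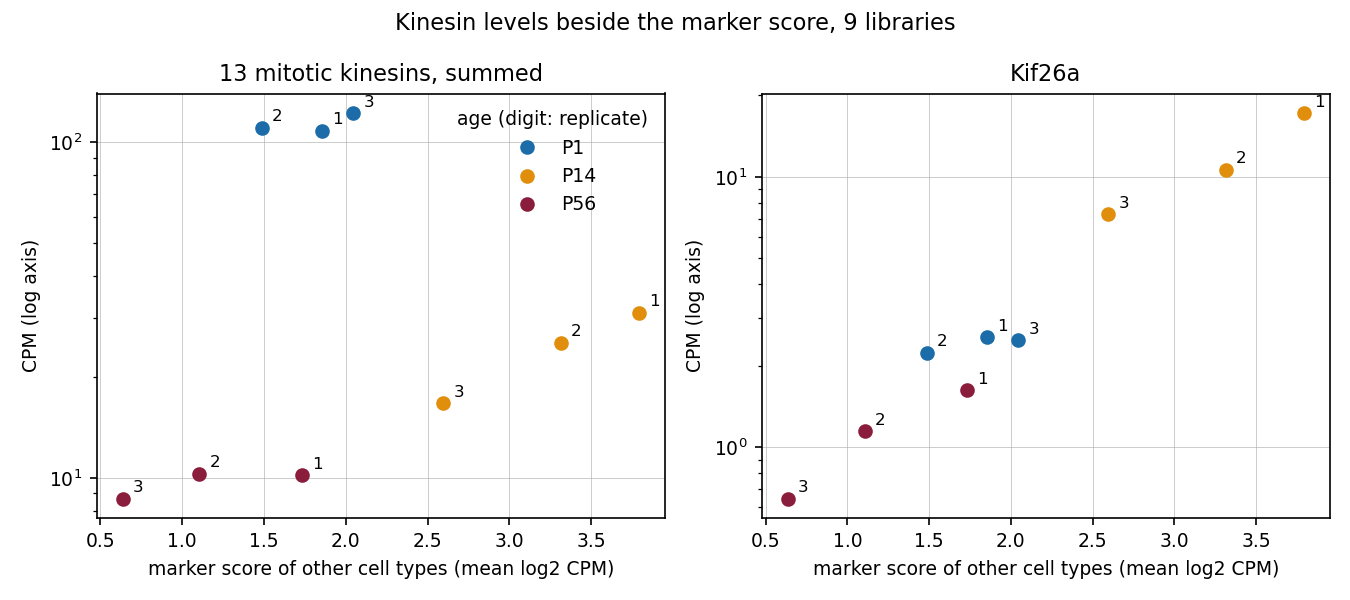
CPM (vertical axis, logarithmic) of the summed mitotic kinesins (left) and of Kif26a (right) against the marker score (mean log2 CPM of 52 markers of other cell types, horizontal axis) for the 9 libraries (points, coloured by age, with the replicate number). The P14 libraries have scores of 2.60 to 3.79, above all P1 and P56 libraries, and among them replicate 3 has the lowest score and the lowest mitotic kinesin sum, 16.7 CPM.

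Transport kinesins had no common direction. From P1 to P14, 5 of 15 rose, 3 fell and 7 were not called (beside 28.4% and 27.5% of all genes that rose and fell), with a median log2 change of 0.12. From P14 to P56, 6 rose and 4 fell (beside 27.5% and 28.5%), with a median of 0.19. At P56 against P1, 7 were higher (Kif13b, Kif16b, Kif1b, Kif3a, Kif5a, Kif5c and Kifc3) and 1 was lower (Kif1a), beside 30.9% and 31.7% of all genes, with a median of 0.34. The counts of the first interval are near the shares of all genes. In the difference between the intervals 4 were positive and 6 negative, beside 24.1% and 26% of all genes, with a median of 0.20.

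**Figure D4:**
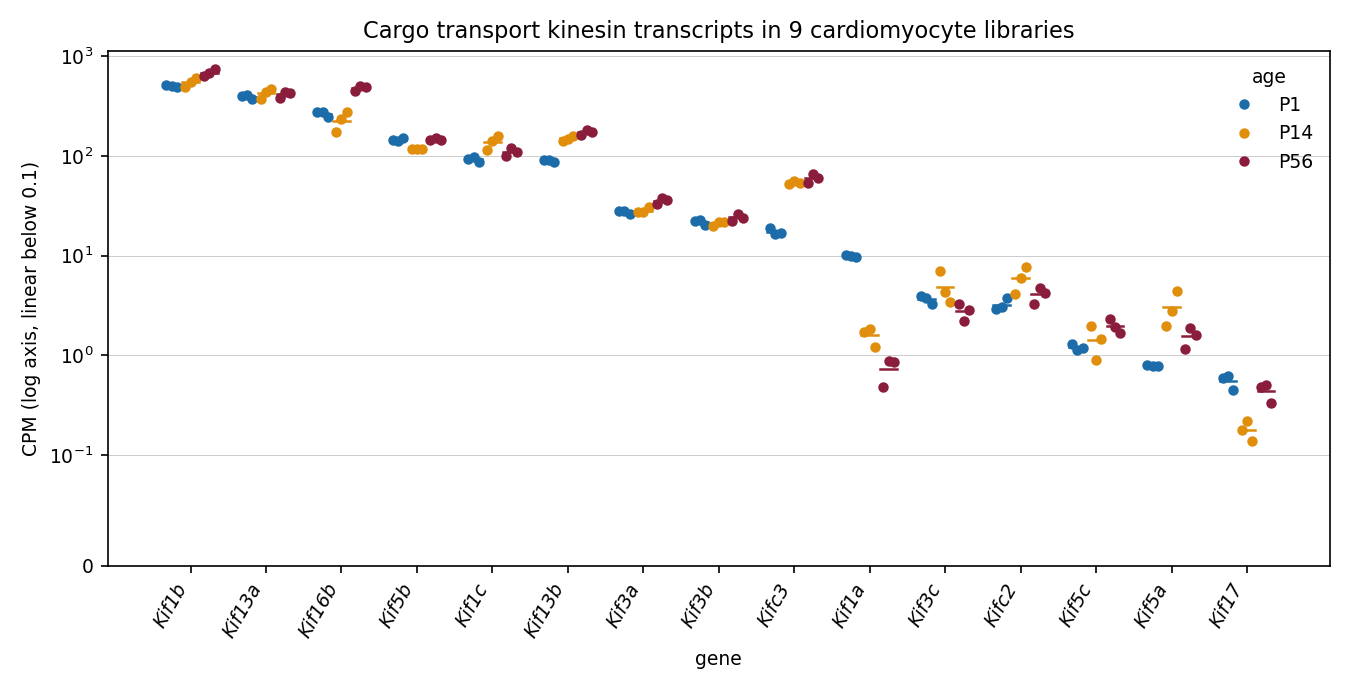
CPM of the 15 transport kinesins (horizontal axis) in each library (points, coloured by age; short lines are the means of 3 libraries), on a vertical axis that is logarithmic above 0.1 CPM and linear below. Levels span from under 1 CPM for Kif17 to 495 to 739 CPM for Kif1b, and Kif1a is the gene whose P1 points lie far above both later ages.

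In the kinesin-1 family, the heavy chains that work with light chains, Kif5b made up 98.5% of the family's CPM per kilobase at P1, 95.9% at P14 and 97.4% at P56. Kif5b had 145, 140.4 and 152 CPM at P1, 118, 116 and 117 at P14, and 145, 151 and 143 at P56. All P14 libraries lay below all others, with changes of −0.31 ± 0.05 (adjusted p = 0.000573) and 0.32 ± 0.05 (adjusted p = 0.000526), and P56 against P1 gave 0.0069 ± 0.05. Kif5a, a heavy chain best known from neurons, had 0.806, 0.777 and 0.775 CPM at P1, 1.94, 2.79 and 4.41 at P14, and 1.16, 1.88 and 1.60 at P56. It rose by 1.95 ± 0.30 from P1 to P14 (adjusted p = 0.000455) and was −0.97 ± 0.29 from P14 to P56 (adjusted p = 0.0167), a call that was lost without P14 replicate 3 (adjusted p = 0.0552) or P56 replicate 1 (0.0560). Its P56 level against P1, 0.97 ± 0.31 (adjusted p = 0.0190), was lost without P1 replicate 2 or 3 or P56 replicate 2, each left out singly (adjusted p 0.0509 to 0.0719), and with the marker score (0.0900). Kif5c, the other neuronal heavy chain, had 1.30, 1.14 and 1.17 CPM at P1, 1.94, 0.892 and 1.46 at P14, and 2.31, 1.91 and 1.67 at P56. Only its P56 level against P1 was called, 0.70 ± 0.26 (adjusted p = 0.0348), and it was lost without any of the P1 libraries or P56 replicate 1 or 2, each left out singly (adjusted p 0.0645 to 0.108).

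The kinesin-3 family carries vesicles and endosomes, and its members took separate courses. Kif16b (chromosome 2, 142617474 to 142901531, minus strand) had 274, 275 and 245 CPM at P1, 173, 232 and 274 at P14, and 446, 504 and 488 at P56. P14 overlapped P1 (−0.22 ± 0.14, adjusted p = 0.201), while all P56 libraries lay above all others, with a change of 1.08 ± 0.14 from P14 to P56 (adjusted p = 0.000187). With the score as a covariate that change was 0.40 and no longer called (adjusted p = 0.143). Kif13b, which carries receptors and scaffold proteins to the membrane, had 91.3, 90.6 and 86.1 CPM at P1, 141, 149 and 159.6 at P14, and 162, 182 and 174 at P56. It rose by 0.75 ± 0.07 in the first interval (adjusted p = 1.28e-05), and its second change of 0.20 ± 0.07 (adjusted p = 0.0238) was lost without P14 replicate 1 or 2 or P56 replicate 2 or 3, each left out singly (adjusted p 0.0618 to 0.0879), and with the marker score its sign turned (−0.062, adjusted p = 0.742). Kif13a had 396, 409 and 374 CPM at P1, 370.2, 436 and 474 at P14, and 379, 438 and 428 at P56 and was called in none of the comparisons by age alone. With the score as a covariate its changes of 0.45 (adjusted p = 0.00300) and −0.52 (adjusted p = 0.0131) were called.

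Kif1b had 509.7, 508 and 495 CPM at P1, 491, 547 and 606 at P14, and 638, 679.9 and 739 at P56, with 0.12 ± 0.08 in the first interval (adjusted p = 0.249) and 0.32 ± 0.08 in the second (adjusted p = 0.00846). The P56 libraries of Kif1b were above all others, and the sign of the second change turned to −0.10 with the score as a covariate. The first change of Kif1b was then called (0.41, adjusted p = 0.00255). Kif1c, a motor of dense core vesicles and integrins, had 93.7, 97.7 and 85.9 CPM at P1, 115, 140.3 and 157 at P14, and 99.7, 121 and 110.2 at P56. It rose by 0.57 ± 0.11 (adjusted p = 0.00192) and then changed by −0.32 ± 0.11 (adjusted p = 0.0356), the second call being lost without P1 replicate 1, P14 replicate 2 or 3 or P56 replicate 1 or 3, each left out singly (adjusted p 0.0530 to 0.118). Kif1a, the synaptic vesicle precursor motor of neurons, had 10.1, 9.82 and 9.74 CPM at P1, 1.71, 1.81 and 1.21 at P14, and 0.476, 0.872 and 0.847 at P56. It fell by 2.64 ± 0.20 (SE) from P1 to P14 (adjusted p = 5.30e-06) and reached −3.75 ± 0.22 at P56 against P1 (adjusted p = 3.61e-07), within the range of the mitotic list and the largest fall among transport kinesins. Within the family of Kif1a, Kif1b and Kif1c, the share of Kif1a per kilobase was 2.50% at P1, 0.345% at P14 and 0.143% at P56. Of its 2 promoter windows, the one at the 5′ end of the gene held no TTTGAA, and the string was in the window of a start inside the gene. Of the 6 markers of Schwann cells and neurons listed, 2 were measured, and both fell from P1 to P14; their part in the change of Kif1a was not tested.

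Among the kinesin-2 motors, which build cilia and carry adhesion and neuronal cargo, the abundant pair changed little. Kif3a had 28.0, 28.2 and 26.4 CPM at P1, 27.1, 27.3 and 30.4 at P14, and 32.7, 37.5 and 36.4 at P56, with 0.041 ± 0.08 and then 0.33 ± 0.08 (adjusted p = 0.00491), a second change that was 0.019 with the score as a covariate (adjusted p = 0.938). Kif3b, its partner in the heterotrimer, had 22.2, 22.7 and 20.4 CPM at P1, 20.0, 21.7 and 21.7 at P14, and 22.4, 25.9 and 24.0 at P56 and was not called in any comparison. Kif3c had 3.90, 3.73 and 3.26 CPM at P1, 6.95, 4.30 and 3.42 at P14, and 3.28, 2.23 and 2.85 at P56, and its second change of −0.81 ± 0.25 (adjusted p = 0.0198) was lost without P14 replicate 1 (adjusted p = 0.0555), the highest of the P14 libraries, or P56 replicate 2 (0.0725), and its sign turned with the marker score (0.21, adjusted p = 0.754). Of the exon bases of Kif3c, 40.7% also belong to other annotated genes, so its counts are uncertain. Kif17, the homodimeric kinesin-2 of dendrites and cilia, was the lowest transport kinesin with 0.585, 0.625 and 0.450 CPM at P1, 0.179, 0.216 and 0.138 at P14, and 0.476, 0.505 and 0.334 at P56. It changed by −1.62 ± 0.31 (adjusted p = 0.00145) and then by 1.29 ± 0.32 (adjusted p = 0.00674), so that all P14 libraries lay below all others. The P14 libraries held only 20 counts of Kif17 in all, which limits the precision of both changes. With the score as a covariate the second change was no longer called (1.63, adjusted p = 0.136).

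The minus end transport motors of the kinesin-14 family rose early. Kifc3, a motor of apical transport and of junctions, had 18.9, 16.5 and 16.7 CPM at P1, 52.4, 56.3 and 53.4 at P14, and 54.1, 65.2 and 59.9 at P56. It rose by 1.64 ± 0.09 from P1 to P14 (adjusted p = 4.82e-07) and did not pass the test in the second interval (0.14 ± 0.08, adjusted p = 0.160), so that P56 exceeded P1 by 1.78 ± 0.09 (adjusted p = 1.00e-07). Its exons overlap other annotated genes, so its counts are less certain. Kifc2, a neuronal transport motor, had 2.88, 3.07 and 3.73 CPM at P1, 4.09, 5.98 and 7.64 at P14, and 3.26, 4.78 and 4.17 at P56, and rose by 0.87 ± 0.23 in the first interval (adjusted p = 0.00927). Its second change was −0.54 ± 0.23 (adjusted p = 0.0710), and with the score as a covariate it was called (−1.46, adjusted p = 0.0155).

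**Figure D5:**
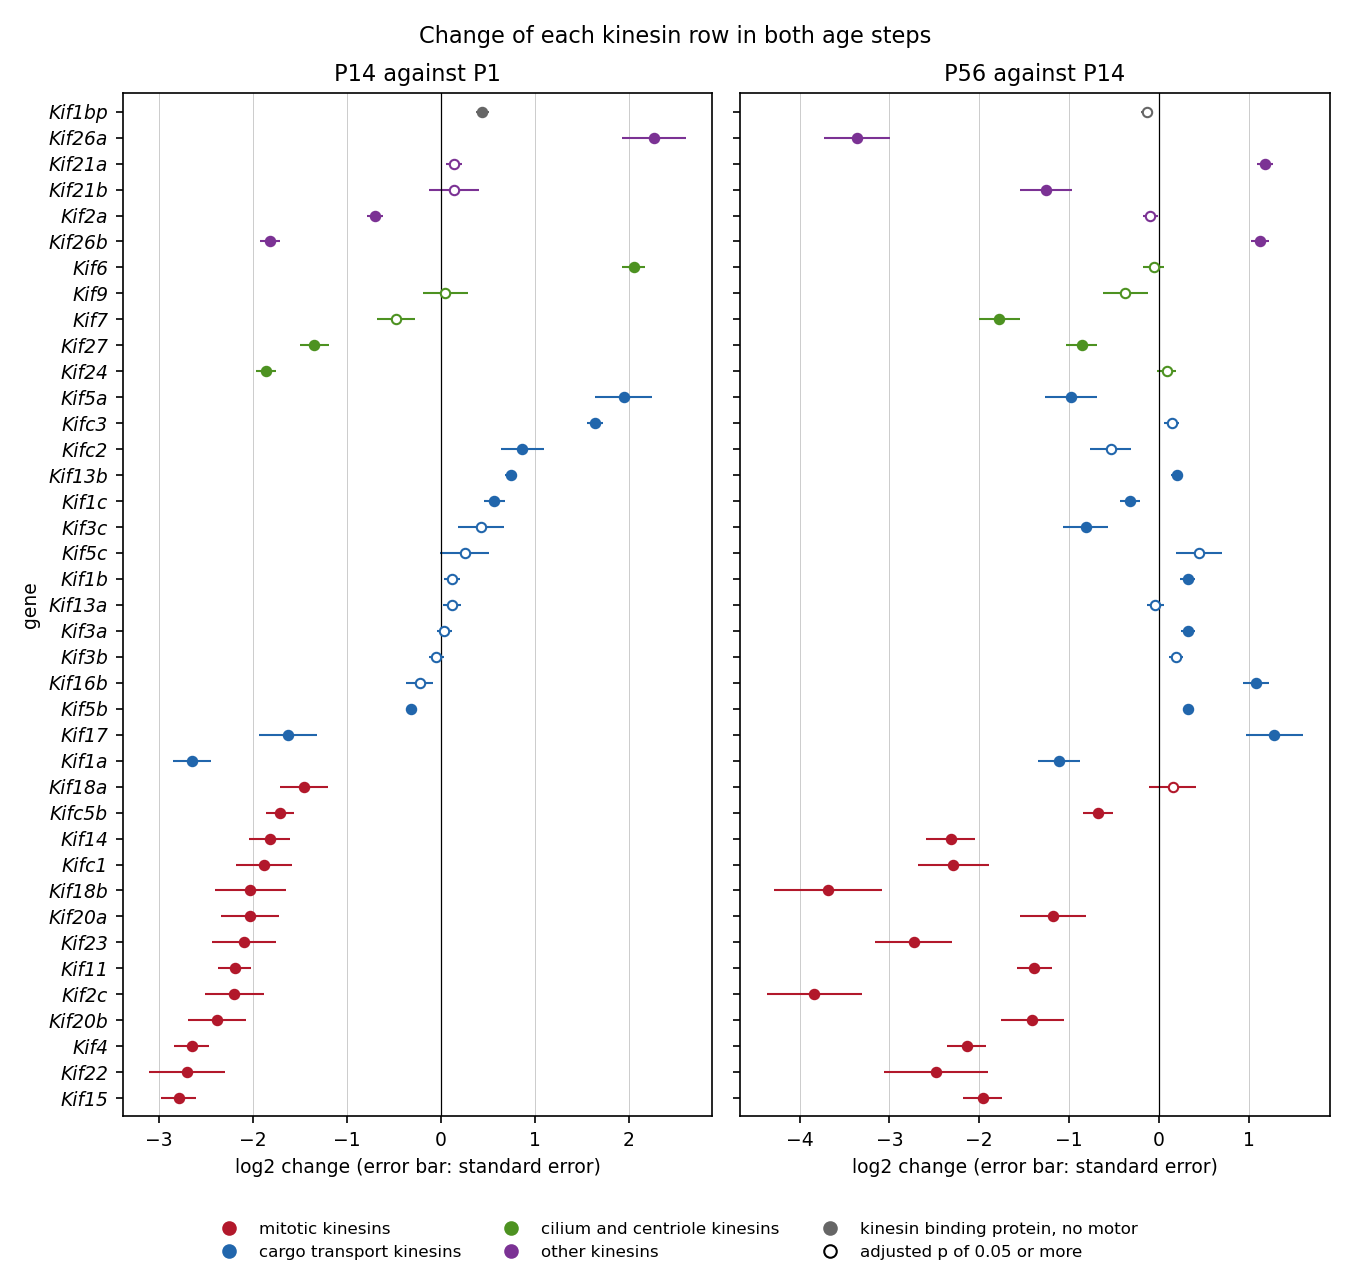
Log2 change (horizontal axis, error bars are SE) from P1 to P14 (left panel) and from P14 to P56 (right panel) for each of the 39 kinesin rows (vertical axis), coloured by class, with open points where the adjusted p was 0.05 or more. All mitotic kinesins lie left of 0 in both panels except Kif18a (0.15 in the right panel), and Kif26a lies at 2.27 and then at −3.36; the panels share the P14 libraries.

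Outside both lists, the plot of both steps shows a few kinesins with steep courses. Kif6, a kinesin of motile cilia by its known role, had 18.8, 16.5 and 16.0 CPM at P1, 61.7, 76.1 and 75.2 at P14, and 59.0, 67.7 and 78.4 at P56. It rose by 2.05 ± 0.12 from P1 to P14 (adjusted p = 1.16e-06) and changed by −0.055 ± 0.12 in the second interval, which did not pass the test (adjusted p = 0.714). With the score as a covariate the second change of Kif6 was called (−0.60, adjusted p = 0.0331). Kif24, which trims microtubules at the mother centriole and holds back cilia, had 17.1, 17.5 and 17.0 CPM at P1, 5.34, 4.79 and 4.11 at P14, and 4.91, 5.12 and 5.12 at P56. It fell by 1.86 ± 0.10 (SE) in the first interval (adjusted p = 7.58e-07) and did not pass the test in the second (0.089 ± 0.11, adjusted p = 0.494). Kif27 had 2.64, 2.50 and 2.38 CPM at P1, 1.02, 0.919 and 1.02 at P14, and 0.498, 0.528 and 0.601 at P56, with changes of −1.34 ± 0.15 and −0.86 ± 0.17. Kif7, a cilium tip protein of the Hedgehog pathway, had 2.47, 2.26 and 2.40 CPM at P1, 2.10, 1.78 and 1.24 at P14, and 0.566, 0.413 and 0.512 at P56, with −0.47 ± 0.20 (adjusted p = 0.0702) and then −1.78 ± 0.23 (adjusted p = 0.000175). With the marker score the second changes of Kif27 and Kif7 were no longer called (adjusted p 0.0833 and 0.160). The first change of Kif7 was then called (−1.11, adjusted p = 0.0120). Of the exon bases of Kif7, 20.3% also belong to other annotated genes. Kif6 was thus the member of this class that was higher at P14, Kif24 and Kif27 were lower, and Kif9 had 0.557 to 1.08 CPM over the 9 libraries and was not called.

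Kif26a and Kif26b, related kinesins that bind microtubules without moving and act in signalling, changed in opposite directions. Kif26a (chromosome 12, 112146208 to 112181747, plus strand) had 2.56, 2.24 and 2.49 CPM at P1, 17.2, 10.6 and 7.26 at P14, and 1.63, 1.15 and 0.646 at P56. All P14 libraries lay above all others, with changes of 2.27 ± 0.34 (adjusted p = 0.000346) and −3.36 ± 0.37 (adjusted p = 6.30e-05). Its P14 values stood in the order of the marker score. With that score in the fit its changes shrank to 0.77 (adjusted p = 0.0186) and −1.30 (adjusted p = 0.00989). Without the score, its lower level at P56 than at P1 (−1.09 ± 0.37, adjusted p = 0.0256) was lost without P1 replicate 1 or 3 or P56 replicate 2 or 3, each left out singly (adjusted p 0.0593 to 0.0865). Kif26b (chromosome 1, 178529125 to 178939200, plus strand) had 240.1, 247 and 226 CPM at P1, 59.3, 73.3 and 70.4 at P14, and 128, 152 and 164 at P56. All P14 libraries lay below all others, with changes of −1.81 ± 0.11 (adjusted p = 1.01e-06) and 1.13 ± 0.10 (adjusted p = 2.44e-05). Both intervals and their difference were called with opposite signs in 6 of 39 kinesin rows, beside 19.9% of all genes.

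Kif21a, a motor that slows microtubule growth at the cell cortex, had 54.7, 55.9 and 52.9 CPM at P1, 52.9, 59.7 and 68.1 at P14, and 129, 138 and 143 at P56. P1 and P14 overlapped (0.14 ± 0.09, adjusted p = 0.184) and P56 was higher, by 1.19 ± 0.09 (adjusted p = 6.50e-06). With the score as a covariate the first change of Kif21a was called (0.45, adjusted p = 0.00195). Kif21b, its low relative, had 0.870, 0.720 and 0.973 CPM at P1, 1.12, 0.838 and 0.855 at P14, and 0.544, 0.253 and 0.379 at P56, with −1.26 ± 0.29 in the second interval (adjusted p = 0.00489), and −0.30 with the marker score (adjusted p = 0.731). Kif2a, a microtubule depolymerase of neurons and spindles, had 77.2, 83.4 and 84.0 CPM at P1, 56.3, 47.4 and 47.2 at P14, and 50.4, 44.5 and 46.2 at P56, and fell by 0.70 ± 0.08 (SE) from P1 to P14 (adjusted p = 8.43e-05). Of its exon bases 19.2% also belong to Dimt1. Kif1bp, which binds several kinesin motors and blocks their contact with microtubules, had 14.9, 15.2 and 15.6 CPM at P1, 21.2, 20.2 and 20.6 at P14, and 19.7, 19.0 and 18.1 at P56. It rose by 0.44 ± 0.07 in the first interval (adjusted p = 0.000413).

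Transcripts of the proteins that work with the mitotic motors mostly fell with them. Of 20 listed partners, 19 were lower and none higher at P14 than at P1 (median −2.29), beside 27.5% and 28.4% of all genes. At P56 against P14, 18 were lower and 1 higher (median −2.21), beside 28.5% and 27.5% of all genes. The changes of this list and of the lists below come from the fit by age alone and are not given with the marker score. In the first interval the largest falls were Bub1 (−3.22 ± 0.28), a kinetochore checkpoint kinase, Ska1 (−3.01 ± 0.36), Ect2 (−2.96 ± 0.21), the activator of the cleavage furrow, and Hmmr (−2.89 ± 0.34). In the second, among genes that reach 1 CPM in the higher age, they were Prc1 (−3.64 ± 0.47), the midzone bundler that docks Kif4, Nuf2 (−3.38 ± 0.36), Racgap1 (−3.37 ± 0.27), the partner of Kif23, and Hmmr (−2.99 ± 0.49). Ska1 (−4.54 ± 0.71), Aurkb (−4.05 ± 0.56) and Bub1 (−3.45 ± 0.46) were under 1 CPM at P14 and left out of this ranking. Cenpe, the kinesin-7 of the kinetochore, which the symbol rule does not take in, had 12.5 ± 0.903 CPM in P1 (mean ± SD, n = 3), then 2.67 ± 0.906 at P14 and 0.716 ± 0.0243 at P56, with changes of −2.22 ± 0.21 and −1.90 ± 0.24. The exceptions were Numa1, which was not called in either interval (0.026 ± 0.08 and −0.074 ± 0.08), and Cit, the citron kinase that works with Kif14, which changed by −0.47 ± 0.08 and then by 0.58 ± 0.08. As a reference, Mki67, the common marker of cycling cells, had 50.1 ± 1.44 CPM in P1, then 6.94 ± 2.83 at P14 and 0.682 ± 0.360 at P56 (mean ± SD, n = 3), and Top2a, the topoisomerase of dividing cells, 25.6 ± 3.50, 3.84 ± 1.29 and 0.402 ± 0.291.

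Light chains and cargo adaptors link the transport motors to their cargo. Of 17 measured, 10 rose and 1 fell in the first interval (median 0.46), beside 28.4% and 27.5% of all genes. In the second, 5 rose and 6 fell (median −0.17), near the 27.5% and 28.5% of all genes. The largest rises in the first interval were Plekhm2 (1.49 ± 0.20), which links kinesin-1 to lysosomes and is known from heart disease, Trak1 (1.12 ± 0.15), the mitochondrial adaptor, Mapk8ip1 (1.03 ± 0.33) and Arl8a (0.93 ± 0.22), a lysosomal GTPase, while Kifap3, the third subunit of kinesin-2, was lower (−0.29 ± 0.09). Trak1 had 451 ± 31.1 CPM in P1, then 982 ± 225 at P14 and 726 ± 81.3 at P56 (mean ± SD, n = 3). In the second interval Trak2 (0.77 ± 0.05), Kifap3 (0.56 ± 0.09), Spag9 (0.48 ± 0.05) and Rhot1 (0.46 ± 0.08), the mitochondrial receptor of Trak proteins, rose most. Among genes that reach 1 CPM in the higher age, Mapk8ip1 (−1.56 ± 0.35), Arl8a (−1.34 ± 0.23), Klc1 (−1.06 ± 0.10), a light chain, and Klc2 (−0.62 ± 0.16) fell most. Hap1, under 1 CPM at each age, changed by −1.02 ± 0.28.

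Dynein, the motor that runs toward the minus end, and its activator dynactin showed no common direction. Of 23 measured genes, 9 rose and 5 fell in the first interval (median 0.11), beside 28.4% and 27.5% of all genes, and 3 rose and 9 fell in the second (median −0.16), beside 27.5% and 28.5%. Only called genes that reach 1 CPM in the higher age are ranked here. The first interval was led by Dynll2 (1.05 ± 0.13), Dync1li1 (0.82 ± 0.08), Dctn1 (0.54 ± 0.10) and Dctn6 (0.51 ± 0.08) among the rises, and by Dynll1 (−0.78 ± 0.19), Dctn4 (−0.40 ± 0.05), Pafah1b1 (−0.37 ± 0.05) and Dync1i2 (−0.36 ± 0.08) among the falls. In the second, Bicd1 (1.41 ± 0.06), a cargo adaptor, rose most, with Pafah1b1 (0.36 ± 0.05) and Dctn4 (0.27 ± 0.05), and Dync1i1 (−2.00 ± 0.29), Dynll1 (−1.74 ± 0.21), Dctn1 (−0.88 ± 0.10) and Actr1b (−0.69 ± 0.14) fell most.

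Tubulins and microtubule binding proteins make up the track. Of 27 measured, 9 rose and 10 fell in the first interval (median −0.093), near the 28.4% and 27.5% of all genes. In the second, 2 rose and 16 fell (median −0.56), beside 27.5% and 28.5%. Of the 52 markers of other cell types 39 fell in the second interval too, and the part of those cells in this list was not tested. Mapt, which encodes tau, had 10.9 ± 0.546 CPM in P1, then 238 ± 53.2 at P14 and 161 ± 17.8 at P56 (mean ± SD, n = 3), a first change of 4.45 ± 0.17. Tuba8 (4.08 ± 0.15), Tuba4a (1.32 ± 0.10) and Mapre3 (1.26 ± 0.10) followed among the rises, and Vash2 (−3.59 ± 0.41), which removes the last residue of alpha tubulin, Tubb2b (−3.05 ± 0.32), Stmn1 (−2.01 ± 0.19) and Tubb5 (−1.63 ± 0.25) led the falls. In the second interval Tuba1c (0.81 ± 0.16) and Mapre3 (0.40 ± 0.09) rose. Among called genes that reach 1 CPM in the higher age, Vash2 (−2.67 ± 0.49), Tuba1a (−2.47 ± 0.37), Vash1 (−2.11 ± 0.29) and Map1b (−2.08 ± 0.15) led the falls. The lowest change in the whole list was −4.57. Map4, the main microtubule associated protein of muscle, had 404 ± 10.0 CPM in P1, then 816 ± 84.0 at P14 and 896 ± 65.6 at P56.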

How the data were processed

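RNA of cardiomyocyte libraries from 3 ages, 3 libraries each, was analysed from 1 table of whole-number counts per gene that the authors deposited. The submitters' processing notes name build GRCm38 and the tools featureCounts 1.4.2, STAR 2.4.0g1 and bcl2fastq 2.17.1.14. The counting mode (strand, exons or whole genes), not given in the sources used here, leaves overlapping genes and near copies uncertain. No gene of the table had a mean count under 10.

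The kinesin rows, role lists and tests were chosen with earlier results of these data known. Counts were fitted with edgeR 4.0.16 in R 4.3.3: filterByExpr removed 7 genes and left 15817, library sizes were scaled by TMM, and the 9 libraries entered 1 fit (glmQLFit) by age alone (biological coefficient of variation 13.9%). The quasi-likelihood test (glmQLFTest) gave p-values, adjusted by Benjamini-Hochberg over all genes tested, with a threshold of 0.05. The SE of a log2 change was its size divided by the square root of F. CPM used the TMM-scaled library sizes, and lengths came from the GENCODE annotation of GRCm38, in which 15763 identifiers, all 39 kinesins among them, were found. Marker scores used a prior count of 0.5. The fit was tested on simulated data.

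Every kinesin row is accounted for. Values in each library are given for all mitotic and transport members and for other members past the threshold in either interval that reach 1 CPM in the higher age. Each partner list is represented by up to 4 genes per direction and interval, those that changed most among called genes reaching 1 CPM, and by Cenpe. Alternatives were DESeq2 1.42.0, RLE size factors, other filters, a test against a log2 change of 1, the marker score as a covariate, a block for the replicate number, longest-transcript lengths and leaving out each library. Protein sequences were not used here.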

Additional observations from a re-analysis of the deposited data

Results flagged for a closer look

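In 6 kinesin rows the change from P1 to P14 and the change from P14 to P56 both passed the threshold with opposite signs, and the difference between the intervals (second change minus first) passed edgeR's quasi-likelihood test after Benjamini-Hochberg adjustment, beside 19.9% of all genes under the same rule. The rows were picked for called steps of opposite sign that share the P14 libraries, so the p-values of the difference are no separate support. Kif26a, highest at P14, had a difference of −5.63 (adjusted p = 6.18e-05), and its first and second changes were 2.27 and −3.36. Kif26b, lowest at P14, had a difference of 2.94 (adjusted p = 7.7e-06). Among transport motors, Kif5a, with its highest mean at P14, had −2.92 (adjusted p = 0.00101) and Kif1c, also with its highest mean at P14, had −0.89 (adjusted p = 0.00393). The second changes of Kif5a and Kif1c lost their calls when some single libraries were left out. Kif17 had 2.91 (adjusted p = 0.00227) and Kif5b 0.64 (adjusted p = 0.000371), and both were lowest at P14, where Kif17 had only 20 counts in all. The P14 libraries also had the highest marker scores of other cell types (2.60 to 3.79, against 0.635 to 2.04 at P1 and P56), and with that score in the fit the differences were −2.07 for Kif26a, 2.06 for Kif26b, −5.32 for Kif5a, −1.83 for Kif1c and 0.72 for Kif5b, all called, and 3.50 for Kif17, no longer called (adjusted p = 0.0654). With 3 libraries an age, no library could be tested as an outlier of its age.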

How the results depend on the processing

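Of 28 members called from P1 to P14, all kept the call in every alternative run that tested them, apart from the test against a log2 change of 1. From P14 to P56, 7 of 28 kept it, 19 lost it with the marker score as a covariate and 5 when 1 library was left out. At P56 against P1, 28 of 31 kept it. For the difference between the intervals 10 of 21 kept it, 9 lost it with the marker score and 5 when 1 library was left out. The filter of at least 1 CPM in 3 libraries left Kif17, Kif21b and Kif9 untested in that run. RLE size factors and no filter on low counts changed no call. The cause of these changes was not tested.

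With the marker score, signs reversed from P14 to P56 in Kif1b (−0.10), Kif13b (−0.062), Kif3c (0.21), Kif20a (0.31) and Kif20b (0.34), and in the difference between the intervals in Kif21b (0.23), Kif7 (0.25) and Kif3c (0.52). Medians with the score from P1 to P14 were −0.91 for all kinesins, −3.08 for mitotic and 0.25 for transport members. From P14 to P56 they were −0.27, −0.69 and −0.041, with 4 kinesins higher and 9 lower, beside 14.8% and 13.8% of all genes. Among them 1 mitotic member was higher and 3 lower, and 1 transport member was higher and 4 lower. The transport median was 0.082 at P56 against P1. For the difference between the intervals 6 mitotic members (median 2.17) and 1 transport member (median −0.24) were higher, beside 15.2% of all genes, and 0 mitotic and 6 transport members were lower.

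Against a log2 change of 1, 4 kinesins were higher from P1 to P14, with 2 transport members higher and 1 lower. From P14 to P56, 0 kinesins were higher and 9 lower, with 7 mitotic members lower and 0 transport members in either direction. At P56 against P1, 3 kinesins were higher, 1 of them a transport motor.

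Leaving out single libraries gave 1 to 6 mitotic members with a positive difference between the intervals (6 without P14 replicate 1, 1 without P14 replicate 2) and 0 to 2 with a negative one (2 without P14 replicate 3). It gave 2 to 4 transport members lower from P14 to P56 (2 without P14 replicate 3 or P56 replicate 1) and transport medians of −0.13 to 0.22 for the difference between the intervals (−0.13 without P14 replicate 2) and 0.20 to 0.43 for P56 against P1. The mitotic median for P56 against P1 was −4.65 to −4.12. For the counts in these runs the shares of all genes are not given here.

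Same-numbered libraries deviated together in 2 of 9 pairs (correlation of −0.199 to 0.447), and 5 of 9 libraries correlated best with one of their own number, so the numbers were not taken to pair the libraries. With the replicate number as a block, 36 kinesins differed among ages, 13 mitotic members fell from P1 to P14, 21 kinesins and 5 transport members fell from P14 to P56, 0 calls were lost and 2 were gained (Kifc2 and, for the difference between the intervals, Kif11). The shares of all genes called with the block are not given here, so these counts only show how far the kinesin calls moved. Of 117 levels per kilobase, 73 moved by more than their SD with the longest transcript as length. Members with few counts at P56 (6 for Kif2c, 8 for Kif18b, 14 for Kif22) limit the precision of their folds.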
